A study of Homo sapiens with 8 samples.

Results

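Nuclear-encoded subunits of the mitochondrial respiratory chain were examined in RNA-seq libraries of ccRCC cell lines with and without knockdown of the lincRNA SLINKY. Members were all genes whose current symbol begins with NDUFA, NDUFB, NDUFC, NDUFS, NDUFV, UQCR or ATP5, or with COX followed by a number from 4 to 8, together with SDHA, SDHB, SDHC, SDHD and CYC1. Assembly factors and pseudogenes were left out. The rule gave 89 of the 18693 gene symbols that had a protein-coding RefSeq entry, and 82 of them had a mean of at least 1 FPKM (fragments per kilobase of transcript, relative to the mapped reads) over all libraries. The low-value filter kept 38 of 38 complex I genes, 4 of 4 complex II genes, 10 of 10 complex III genes, 11 of 17 complex IV genes and 19 of 20 complex V genes.

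The 8 libraries came from A498 and 786-O, established cell lines of ccRCC, the most common histologic type of kidney cancer. Each cell line contributed 2 NTC libraries (non-targeting control siRNA), 1 library with SLINKY siRNA 1 and 1 with SLINKY siRNA 2. Every culture was transfected with Lipofectamine at 50 nM siRNA. The labels give 16 hr of transfection and name all siRNAs as pools. The methods give RNA isolation at 24 hr, and describe 2 separate custom siRNAs against SLINKY and a pool for NTC only. A498 was grown in DMEM and 786-O in RPMI-1640, so that cell line and culture medium cannot be told apart. The labels do not say whether libraries of a group came from separate cultures, and p-values then measure only the spread between these libraries.

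The respiratory chain sits in the inner mitochondrial membrane. Complexes I and II take electrons from NADH and succinate and pass them to ubiquinone, complex III passes them on to cytochrome c, and complex IV passes them to oxygen. Complexes I, III and IV pump protons, and complex V, the ATP synthase, uses the proton gradient to make ATP. Most subunits are encoded in the nucleus, and a few core subunits of complexes I, III, IV and V are encoded by mitochondrial DNA and are not members. In clear cell tumors, loss of the tumor suppressor VHL leaves hypoxia-inducible factors active, and these tumors are known for low mitochondrial respiration.

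The knockdown was checked first. In A498, the NTC libraries had 14.6 and 16.1 FPKM of SLINKY, which fell to 1.64 FPKM with siRNA 1 and to 3.01 FPKM with siRNA 2. In 786-O, where NTC had 1.45 and 1.39 FPKM, siRNA 1 left 0.0569 FPKM and siRNA 2 left 0.594 FPKM. All siRNA libraries were below the NTC libraries of their cell line (exact permutation test within cell lines, two-sided p = 0.0556, the smallest that the 36 arrangements allow). Of the renal and ccRCC markers, PAX8 ranged from 39.2 to 48.1 FPKM, and VIM, KRT8 and KRT18 were above 200 FPKM in all libraries. CA9, a hypoxia-inducible gene of most ccRCC tumors, reached at most 0.559 FPKM. LRP2 and CUBN, genes of the proximal tubule, reached at most 0.0577 FPKM. EGLN3, another marker on this list, ranged from 50.4 to 56.3 FPKM in A498 and from 14.5 to 17.2 FPKM in 786-O. VEGFA ranged from 21.5 to 24.6 FPKM in 786-O and was higher in all A498 libraries, up to 33.9 FPKM. PAX2 ranged from 1.06 to 1.84 FPKM over all libraries. Of 8 markers of other cell types, PTPRC, CD3E and COL3A1 were at 0 in all libraries, and only CD68 passed the filter, at 138 to 151 FPKM in A498 and 1.70 to 5.20 FPKM in 786-O.

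Promoter stretches of 4 members that differed between the cell lines are shown because they carry the binding motif of NRF1, nuclear respiratory factor 1, or of YY1, transcription factors known to act at genes of the respiratory chain. They are RefSeq sequences of GRCh38.p14 that run from 120 bases before the start of the gene through its first 30 bases, written 5′ to 3′ on the strand of the gene. NDUFS4 (chr5:53560519-53560668, plus strand) was lower in 786-O. NDUFA9 (chr12:4648994-4649143, plus strand), NDUFS6 (chr5:1801287-1801436, plus strand) and SDHB (chr1:17054003-17054152, minus strand) were higher. Capitals mark the YY1 motif AAGATGGCG in NDUFS4, NDUFA9 and SDHB, and in NDUFS6 they mark GCGCATGC, the reverse complement of the NRF1 motif GCATGCGC. The marked YY1 matches lie within the first 30 bases of the gene and hold the letters ATG. Whether they overlap the start of the coding sequence was not tested.
NDUFS4: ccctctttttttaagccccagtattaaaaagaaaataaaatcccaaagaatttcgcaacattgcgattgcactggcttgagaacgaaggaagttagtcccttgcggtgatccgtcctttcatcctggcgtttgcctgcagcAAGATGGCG
NDUFA9: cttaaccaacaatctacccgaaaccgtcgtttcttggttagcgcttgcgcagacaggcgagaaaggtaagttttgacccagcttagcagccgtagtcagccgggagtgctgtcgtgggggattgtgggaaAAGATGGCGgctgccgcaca
NDUFS6: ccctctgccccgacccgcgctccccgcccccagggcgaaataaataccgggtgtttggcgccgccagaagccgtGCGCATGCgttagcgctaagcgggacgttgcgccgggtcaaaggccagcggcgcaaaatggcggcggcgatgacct
SDHB: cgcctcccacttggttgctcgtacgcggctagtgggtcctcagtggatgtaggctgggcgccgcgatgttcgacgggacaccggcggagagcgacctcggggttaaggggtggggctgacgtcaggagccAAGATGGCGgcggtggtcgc

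RefSeq promoters, from 250 bases before to 50 bases after the start, were held for 67 of the tested members. Searched on both strands, GCATGCGC was found in 13 of them (19.4%), against 5.98% of the 8691 promoters of all genes tested and 4.26% of 15843 promoters in all. Of the 13 genes, 9 were higher in 786-O, 2 were lower and 2 were not called, where 57.3% of all members tested were higher and 26.8% lower. AAGATGGCG was found in 8 member promoters (11.9%), against 4.28% of the genes tested and 2.74% of all promoters, and 6 of those genes were higher, 1 lower and 1 not called. ACGTG, the core of the hypoxia response element, was found in 18 (26.9%), against 27.8% of the genes tested and 23.7% of all promoters. Of these 18 genes, 10 were higher, 3 lower and 5 not called. Except in ATP5PF, where it lay 57 bases before the start, AAGATGGCG was found 10 to 25 bases after the start of the gene. Its share can therefore reflect sequence around the first codons, which was not tested. A match describes the sequence alone and was not tested as a binding site.

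The members were abundantly expressed. They held 3.64% to 3.93% of the summed FPKM of all protein-coding entries of a library, and 58 of them had a mean of at least 100 FPKM. The median member had 147 FPKM, against 9.72 FPKM for the median of all 10503 genes tested. ATP5F1E, the epsilon subunit of the ATP synthase, had the highest mean at 1564 FPKM. Read numbers implied by the intervals that Cufflinks gave for genes with a single entry summed to 9455898 in the shallowest library (A498 with siRNA 2) and 24242248 in the deepest (786-O NTC 2).

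786-O and A498 were then compared over all 8 libraries with knockdown as a covariate. The genes of complexes II, III and V were mostly higher in 786-O, and those of complex I were divided. In complex IV, 5 genes were lower and 3 higher. Of the 82 members tested, 69 (84.1%) were called at an adjusted p under 0.05 in limma, against 83.0% of all genes, so that a called difference was as common among the members as in the background. Of the members, 47 (57.3%) were higher in 786-O, against 42.5% of all genes, and 22 (26.8%) were lower, against 40.6% of all genes. The libraries of the cell lines did not overlap for 64 members (78.0%), against 77.3% of all genes.

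The differences were small in size, set beside shares over all genes that were not matched for level. Of the members tested, 15 (18.3%) differed by at least 1.5-fold, against 43.9% of all genes, and 3 (3.66%) by at least 2-fold, against 23.5%. The 3 include NDUFC2-KCTD14, which passed the low-value filter only through 786-O. The median absolute log2 difference was 0.31 for members and 0.50 for all genes, and the median signed log2 difference (786-O minus A498) was 0.19 for members and 0.02 for all genes. By complex the median log2 difference was 0.08 for complex I, 0.32 for complex II, 0.20 for complex III, -0.10 for complex IV and 0.23 for complex V. In complex II, 3 of 4 genes were higher and 1 was lower. In complex III, 6 were higher, 1 was lower and 3 were not called. The 6 include UQCRH and its copy UQCRHL, which may share reads. In complex V, 16 genes were higher, 1 was lower and 2 were not called. In complex I, 19 were higher, 14 lower and 5 not called. Over all genes 42.5% were higher and 40.6% lower, and the counts of complex I were near these shares. RNA of whole cultures cannot tell less RNA per cell from fewer cells that carry it.

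**Figure D1:**
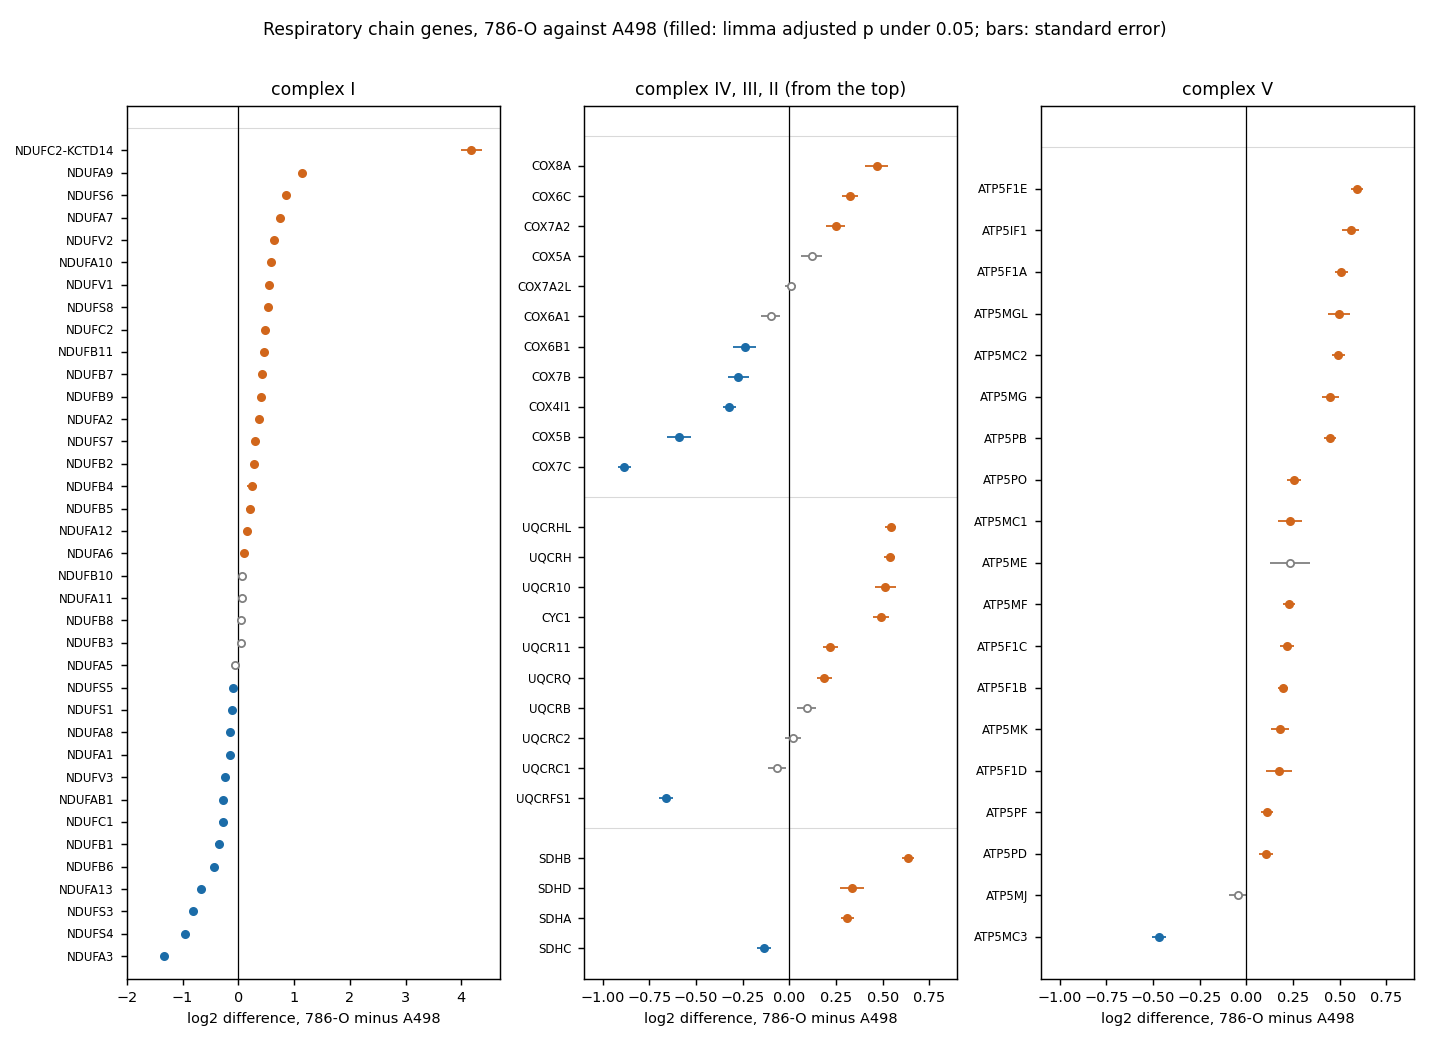
Log2 difference of FPKM between 786-O and A498 (horizontal axis, 786-O minus A498) for the tested members whose values are reported, by complex, with the standard error of limma as bars and filled points for an adjusted p under 0.05. Complex V lies to the right of 0 except for ATP5MC3 at -0.47 and ATP5MJ at -0.04, complex I spreads from NDUFA3 at -1.33 to NDUFC2-KCTD14 at 4.18, and complex IV reaches -0.88 at COX7C.

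Summed over their genes, the complexes differed in the same way as their medians. Complex V summed to 5519, 5728, 5618 and 5427 FPKM in A498 (NTC 1, NTC 2, siRNA 1, siRNA 2) and to 6931, 7035, 7010 and 7070 FPKM in 786-O. Complex IV summed to 4972, 4840, 4754 and 4554 FPKM in A498 and to 3922, 4341, 4076 and 4133 FPKM in 786-O. The cell lines did not overlap for either complex, nor for complex II (174 to 178 FPKM in A498, 232 to 242 FPKM in 786-O) or complex III (1697 to 1770 FPKM and 2209 to 2264 FPKM). For complex I they overlapped, at 5934 to 6437 FPKM in A498 and 6128 to 6484 FPKM in 786-O. These sums give most weight to the most abundant genes and were not tested. In complex III the most abundant were UQCRH and its copy UQCRHL, which may share reads.

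**Figure D2:**
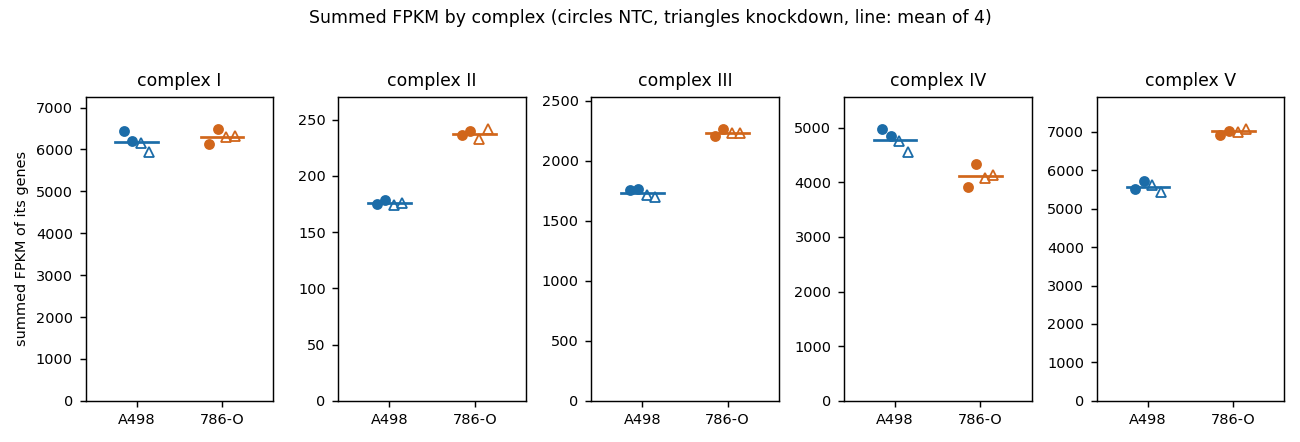
Summed FPKM of the genes of each complex (vertical axis, from 0) in the A498 and 786-O libraries, with circles for NTC, triangles for knockdown and a line at the mean of 4 libraries. Complexes II, III and V sit higher in 786-O, complex IV sits lower, and complex I overlaps.

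Complex I takes up electrons from NADH through core subunits that bind flavin and iron-sulfur clusters, with accessory subunits around them. Among its core subunits, NDUFV1 (the flavin and NADH binding subunit, log2 difference 0.55), NDUFV2 (0.64), NDUFS7 (0.30) and NDUFS8 (0.54) were higher in 786-O. NDUFS1 and NDUFS3 were lower, with log2 differences of -0.11 and -0.81. The call of NDUFS1 was close to the threshold (limma adjusted p = 0.0428) and was lost in 9 of the alternative fits, among them those with NTC libraries only and with knockdown libraries only. NDUFS3 (NM_004551, hg19 chr11:47600562-47606115) was 159, 155, 147 and 149 FPKM in A498 and 89.0, 88.8, 83.8 and 85.4 FPKM in 786-O, a fall of all 786-O libraries below all A498 libraries by 1.76-fold (SE 0.03 on the log2 scale, adjusted p = 3.1e-09).

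Apart from NDUFC2-KCTD14, given below, the largest changes in complex I were in the accessory subunits NDUFA3, NDUFA9 and NDUFS4. NDUFA3, a small accessory subunit (NM_004542, hg19 chr19:54606160-54610281), was 365, 325, 330 and 308 FPKM in A498 and 123, 137, 131 and 135 FPKM in 786-O. It was lower in all 786-O libraries, by 2.52-fold (log2 difference -1.33, SE 0.05, limma adjusted p = 8.16e-09). NDUFS4, an accessory subunit needed for a stable complex (NM_002495, hg19 chr5:52856465-52979171), was 90.5, 94.8, 93.4 and 95.7 FPKM in A498 and 46.4, 47.2, 49.0 and 51.0 FPKM in 786-O. Its levels did not overlap and its log2 difference was -0.95 (SE 0.04, adjusted p = 3.98e-09).

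NDUFA9, an accessory subunit that holds NADPH (NM_005002, hg19 chr12:4758264-4796720), went the other way. It was 29.8, 29.9, 29.8 and 28.8 FPKM in A498 and 64.2, 68.7, 65.1 and 64.7 FPKM in 786-O, so that all 786-O libraries were higher, by 2.22-fold (log2 difference 1.15, SE 0.04, limma adjusted p = 1.04e-09). NDUFS6 (log2 difference 0.86), which carries zinc, and NDUFA7 (0.76) were also higher in 786-O, whereas NDUFA13 (-0.67), also known as GRIM-19, was lower. NDUFA9 and NDUFS4 are printed above with the same YY1 motif and differed in opposite directions.

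The largest log2 difference of all members was that of NDUFC2-KCTD14, a read-through transcript of NDUFC2 and the neighbouring KCTD14 (hg19 chr11:77726761-77791265). It was 0.561, 0.431, 0.289 and 0.192 FPKM in A498 and 7.71, 7.58, 7.61 and 9.24 FPKM in 786-O, a log2 difference of 4.18 (SE 0.19) on the scale of FPKM plus 0.1. Its mean was 0.368 FPKM in A498 and 8.04 FPKM in 786-O, so that it passed the filter only through 786-O. Its call is therefore not read as support. In A498, its level lay in another entry in NTC 2 than in the remaining libraries. NDUFC2 itself (hg19 chr11:77779393-77791265) ranged from 28.5 to 30.1 FPKM in A498 and from 36.4 to 44.1 FPKM in 786-O. The NDUFC2 locus lies within that of the read-through transcript, reads of shared exons are divided between the entries, and the value of NDUFC2-KCTD14 is uncertain for that reason.

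Complex II is succinate dehydrogenase, which also belongs to the citric acid cycle and is encoded wholly in the nucleus. SDHB, its iron-sulfur subunit (NM_003000, hg19 chr1:17345225-17380665), was 81.7, 82.9, 81.0 and 81.5 FPKM in A498 and 126, 130, 123 and 130 FPKM in 786-O. All 786-O libraries were higher, by 1.56-fold (log2 difference 0.64, SE 0.03, limma adjusted p = 4.3e-08). SDHA, the flavoprotein subunit, was higher with a log2 difference of 0.31, and SDHD, a membrane anchor, with 0.34. SDHC, the other anchor, was slightly lower at -0.14 (SE 0.04, adjusted p = 0.0074), and its call was lost with NTC libraries only.

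**Figure D3:**
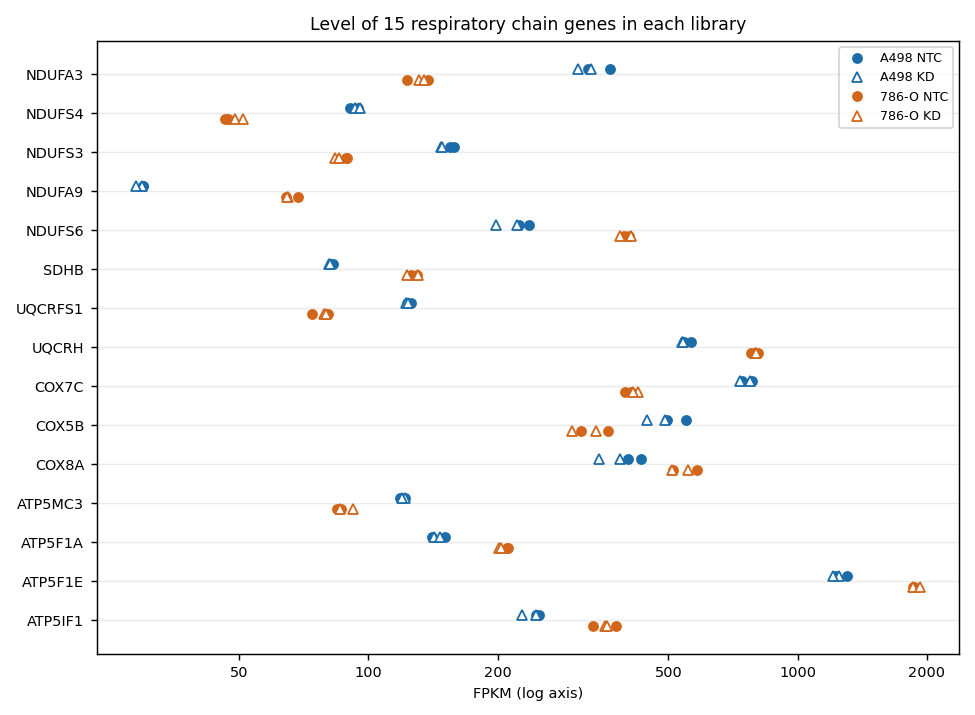
FPKM (horizontal log axis) of 15 members in each library, with A498 in blue, 786-O in orange, filled circles for NTC and open triangles for knockdown. All genes shown are among the 64 of 82 tested members whose libraries do not overlap between the cell lines (78.0%, against 77.3% of all genes). Their separation is therefore given by the choice of genes. ATP5F1E is highest at 1207 to 1302 FPKM in A498 and 1859 to 1931 FPKM in 786-O, and NTC and knockdown libraries of a cell line lie close together.

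In complex III, the subunit that carries the Rieske iron-sulfur cluster and cytochrome c1 went in opposite directions. UQCRFS1, the Rieske protein (NM_006003, hg19 chr19:29698167-29704136), was 123, 125, 122 and 124 FPKM in A498 and 74.1, 80.5, 79.0 and 79.7 FPKM in 786-O. It was the single called member of complex III that was lower in 786-O, with no overlap between the cell lines and a log2 difference of -0.66 (SE 0.04, limma adjusted p = 6.95e-08). CYC1, cytochrome c1, was higher with a log2 difference of 0.49, and UQCR10, a small subunit, with 0.51. For the core proteins UQCRC1 and UQCRC2 the log2 differences of -0.07 and 0.02 did not pass the test.

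UQCRH, the hinge protein between cytochromes c1 and c, and UQCRHL, an intronless copy of it, were both higher in 786-O, with log2 differences of 0.54 each. UQCRH ranged from 537 to 565 FPKM in A498 and from 778 to 808 FPKM in 786-O. UQCRHL stood at 50.6% to 52.5% of UQCRH in each library. With reads of 36 bp from near-identical copies, how the reads were divided between these genes is uncertain.

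Complex IV, cytochrome c oxidase, has nuclear subunits around a core encoded by mitochondrial DNA, several of them with a second isoform in muscle, lung or testis. Of its 11 genes tested, 5 were lower in 786-O, 3 were higher and 3 were not called. Over all genes 40.6% were lower, 42.5% higher and 83.0% called. The count of lower genes was thus near the share over all genes. COX7C, a small subunit (NM_001867, hg19 chr5:85913784-85916583), was 741, 785, 777 and 733 FPKM in A498 and 409, 397, 425 and 415 FPKM in 786-O. The cell lines did not overlap and the fold difference was 1.85 in favor of A498 (log2 difference -0.88, SE 0.04, limma adjusted p = 7.29e-09). COX5B, which binds zinc (NM_001862, hg19 chr2:98262521-98264657), was 548, 495, 490 and 446 FPKM in A498 and 314, 362, 339 and 298 FPKM in 786-O. It was lower in all 786-O libraries with a log2 difference of -0.59 (SE 0.06, adjusted p = 1.11e-05).

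COX4I1 (log2 difference -0.32), COX7B (-0.27) and COX6B1 (-0.24) were also lower in 786-O. COX8A (0.47), COX6C (0.33) and COX7A2 (0.25) were higher. COX5A, COX6A1 and COX7A2L, the last a factor that joins complexes III and IV into supercomplexes, had log2 differences of 0.12, -0.10 and 0.01 that did not pass the test. COX7A2L ranged from 152 to 155 FPKM in A498 and from 153 to 159 FPKM in 786-O.

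In each isoform pair the ubiquitous form was expressed and the tissue-restricted form was near 0. COX4I1 ranged from 835 to 937 FPKM in A498 and from 682 to 755 FPKM in 786-O. COX4I2, the lung form that is known as hypoxia-inducible, was listed at 0 in all libraries but A498 NTC 2, where it had 0.0566 FPKM, the equivalent of 1 read. COX6A2 and COX7A1, the heart and muscle forms, reached at most 0.167 and 0.148 FPKM, against 332 to 405 FPKM for COX6A1 and 192 to 259 FPKM for COX7A2. COX8C, a testis form, reached at most 0.172 FPKM, against at least 345 FPKM for COX8A, and COX7B2 was listed at 0 in all libraries.

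The testis form COX6B2 was low but not evenly so. It was 0.348, 0.243, 0.310 and 0.245 FPKM in A498, from 27, 13, 16 and 9 implied reads, and 0, 0.0635, 0 and 0.0145 FPKM in 786-O, from 0, 6, 0 and 1 implied reads. All A498 libraries were above all 786-O libraries, at levels below the filter and not tested. COX6B1 ranged from 367 to 514 FPKM over all libraries. The genes long named NDUFA4 and NDUFA4L2, now COXFA4 and COXFA4L2, fall outside the rule by their current symbols. COXFA4 ranged from 100 to 106 FPKM in A498 and from 74.2 to 87.0 FPKM in 786-O, and COXFA4L2, a gene induced by hypoxia-inducible factors in ccRCC tumors, reached at most 0.360 FPKM.

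Complex V consists of the catalytic F1 part and of the membrane part, in which a ring of c subunits turns. All subunits of F1 were higher in 786-O. ATP5F1E (NM_006886, hg19 chr20:57603733-57607422) was 1228, 1302, 1251 and 1207 FPKM in A498 and 1872, 1859, 1863 and 1931 FPKM in 786-O. All 786-O libraries were above all A498 libraries, by 1.51-fold (log2 difference 0.59, SE 0.03, limma adjusted p = 7.69e-08). The alpha subunit ATP5F1A was higher with a log2 difference of 0.51, the catalytic beta subunit ATP5F1B with 0.20, the gamma subunit ATP5F1C with 0.22 and the delta subunit ATP5F1D with 0.18. The call of ATP5F1D was close to the threshold (adjusted p = 0.0409), and its libraries overlapped between the cell lines.

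The c subunit of the ring is the same mature protein from 3 genes, and these did not move together. ATP5MC2 was higher in 786-O with a log2 difference of 0.49 and ATP5MC1 with 0.23, although the libraries of ATP5MC1 overlapped and its call was lost with knockdown libraries only. ATP5MC3 (hg19 chr2:176040986-176046490) was 119, 122, 122 and 120 FPKM in A498 and 86.5, 84.3, 85.8 and 92.2 FPKM in 786-O. It was the single called member of complex V that was lower in 786-O (log2 difference -0.47, SE 0.04, limma adjusted p = 8.25e-07).

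ATP5IF1, the inhibitor that stops the ATP synthase from running in reverse, was 250, 246, 245 and 228 FPKM in A498 and 335, 379, 357 and 360.5 FPKM in 786-O. It was higher in all 786-O libraries, by 1.47-fold (log2 difference 0.56, SE 0.05, limma adjusted p = 1.39e-06). ATP5MGL, a copy of the g subunit gene ATP5MG, was higher with a log2 difference of 0.50, beside 0.45 for ATP5MG, and reads may have been divided between them. ATP5MJ and ATP5ME, small membrane subunits, did not pass the test, with log2 differences of -0.04 and 0.23. The read-through transcript ATP5MF-PTCD1 had 0.786, 0.822, 0.124 and 0.000385 FPKM in A498 and 2.05, 0.926, 0.963 and 1.81 FPKM in 786-O, below the filter.

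Other genes of the pathway were counted from lists. Called were 42 of 51 assembly factors, 11 of 13 citric acid cycle genes, 12 of 17 genes of mitochondrial transcription and biogenesis and 11 of 15 genes of electron carriers, with 83.0% of all genes called, 42.5% higher and 40.6% lower. Of the assembly factors, 29 were higher in 786-O, 13 were lower and 9 were not called, with COX20 (log2 difference 1.72) and UQCC2 (1.44) higher and SCO2 (-1.07) and COA3 (-1.04) lower. Of the citric acid cycle genes, 7 were higher and 4 lower, with IDH2, mitochondrial isocitrate dehydrogenase, at -0.50 and CS, citrate synthase, at 0.47. Of the genes of mitochondrial transcription and biogenesis, 10 were higher and 2 lower. Among the higher were TFB1M at 1.10, TFAM at 0.70 and NRF1 at 0.54, and the 2 lower were MTERF1 at -0.42 and TEFM at -0.31. YY1 at -0.08 and GABPA at 0.02 were not called. PPARGC1A, the coactivator PGC-1alpha, did not exceed 0.0586 FPKM. Of the genes of electron carriers and ubiquinone synthesis, 6 were higher and 5 lower. ETFB, a subunit of the electron transfer flavoprotein, was the most abundant of these and ranged from 458 to 549 FPKM in A498 and from 100 to 119 FPKM in 786-O (log2 difference -2.17).

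SLINKY knockdown was then compared with NTC. No member was called at an adjusted p under 0.05 in limma, over both cell lines, within A498, within 786-O or for the difference between the cell lines. Of all genes, 0% were called over both cell lines, 0.0286% in A498, 0% in 786-O and 0.00952% for the difference. At an unadjusted p under 0.05, 9 members (11%) stood out over both cell lines against 11.9% of all genes, 7 (8.54%) in A498 against 6.08%, 1 (1.22%) in 786-O against 3.79%, and 1 (1.22%) for the difference against 1.82%. These shares were near or below the background, apart from a slightly higher share in A498.

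Taken singly, each siRNA library left nearly all members close to the NTC mean of its cell line. The threshold was the fold change that the study uses, a rise of at least 25% or a fall of at least 20%. In A498, 1 member passed it with siRNA 1, against 3.81% of all genes, and 2 with siRNA 2, against 5.49%. In 786-O, 0 members passed it with siRNA 1, against 5.91%, and 1 with siRNA 2, against 3.92%. These members were NDUFC2-KCTD14 with both siRNAs in A498, ATP5F1D with siRNA 2 in A498 and NDUFB4 with siRNA 2 in 786-O. Of the 82 members, 26 (31.7%) moved the same way in all 4 siRNA comparisons, against 32.0% of all genes. Of these, 11 (13.4%) were up, against 17.6% of all genes, and 15 (18.3%) were down, against 14.4%. The siRNA comparisons of a cell line share its NTC libraries. The shares were not matched for level, with a median of 147 FPKM for members and 9.72 FPKM for all genes tested.

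The medians were close to 0. The median log2 change of the members was -0.04 in A498 and 0.01 in 786-O, against 0.01 for all genes in each cell line. In A498, the median was -0.02 with siRNA 1 and -0.07 with siRNA 2. By complex, over both cell lines, the medians ranged from -0.03 in complex IV to 0.00 in complex II. Between the NTC libraries of a cell line, the median absolute log2 difference of a member was 0.08 in A498 and 0.09 in 786-O.

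The summed FPKM of complexes I, III and IV was lower in both siRNA libraries of A498 than in its NTC libraries. For complex I the sums were 6437 and 6199 FPKM with NTC and 6157 and 5934 FPKM with the siRNAs. In 786-O the NTC and siRNA libraries overlapped for these complexes. The summed FPKM of all protein-coding entries was lower with the siRNAs in both cell lines, at 498722 and 488816 against 508331 and 503527 with NTC in A498, and at 511623 and 508842 against 513543 and 520199 in 786-O. Its part in the sums of the complexes was not tested.

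**Figure D4:**
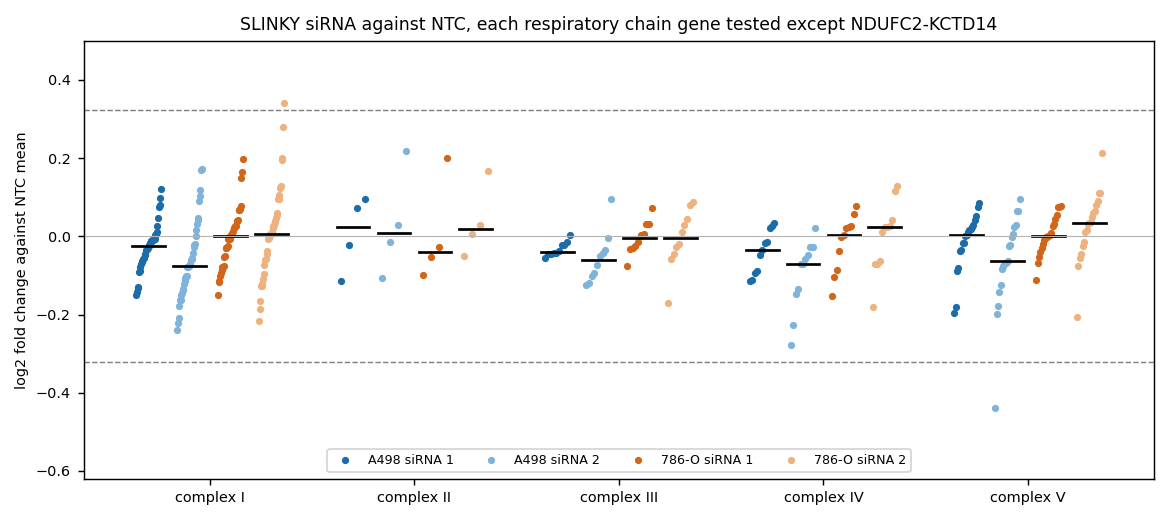
Log2 fold change of each siRNA library against the NTC mean of its cell line (vertical axis) for the tested members of each complex except NDUFC2-KCTD14, with a black bar at the median and dashed lines at a rise of 25% and a fall of 20%. Only ATP5F1D with siRNA 2 in A498 (-0.44) and NDUFB4 with siRNA 2 in 786-O (0.34) lie beyond the dashed lines.

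The 6 members with the largest mean change among those that moved the same way in all 4 comparisons were ATP5F1D, NDUFB7, NDUFS7, NDUFB11 and NDUFA11, which were lower, and SDHD, which was higher. ATP5F1D was 135 and 118 FPKM in the A498 NTC libraries and 110 and 93.1 FPKM with the siRNAs, and in 786-O it was 128 and 136 FPKM against 122 and 125 FPKM. The siRNA libraries were below both NTC libraries in each cell line, yet the log2 change over both was -0.20 (SE 0.07) and did not pass the test (limma adjusted p = 0.378). Within A498 the change of ATP5F1D was -0.32 (adjusted p = 0.776), and without the siRNA 1 library it was -0.44 and passed the threshold, as did NDUFC2-KCTD14, in a fit where 156 genes were called in place of 3.

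NDUFB7, an accessory subunit of complex I, was 254 and 230 FPKM in the A498 NTC libraries and 221 and 205 FPKM with the siRNAs, and 302 and 352 FPKM against 295 and 281 FPKM in 786-O. Each siRNA library was below both NTC libraries, with a log2 change of -0.18 (SE 0.05, limma adjusted p = 0.349). NDUFS7, a core subunit with an iron-sulfur cluster, NDUFB11 and NDUFA11 had log2 changes of -0.15, -0.13 and -0.13, with adjusted p-values of 0.367, 0.364 and 0.318. SDHD was 19.1 and 22.8 FPKM in the A498 NTC libraries and 22.4 and 24.4 FPKM with the siRNAs, and 27.5 and 24.8 FPKM against 30.1 and 29.4 FPKM in 786-O. Its NTC and siRNA libraries overlapped in A498, and its log2 change over both cell lines was 0.17 (SE 0.06, adjusted p = 0.391).

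Among the members tested, NDUFC2-KCTD14 had the largest log2 change within a cell line, -0.81 in A498 (SE 0.20, limma adjusted p = 0.667), where its levels were below 1 FPKM, and 0.13 in 786-O (adjusted p = 0.969). None of the assembly factors, citric acid cycle genes, genes of mitochondrial transcription or electron carriers was called in the knockdown over both cell lines by limma, and 5, 0, 3 and 0 of them had an unadjusted p under 0.05.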

How the data were processed

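RNA-seq was analysed in 8 libraries (single-end 36 bp reads, TruSeq kit, hg19). The authors deposited FPKM values with a 95% interval for 75378 entries per library, made with TopHat2 2.0.0 and Cufflinks 2.0.2 per the labels. FPKM values of protein-coding RefSeq entries (35122 of 35951, or 97.7%, matched a current symbol in a RefSeq table of GRCh38.p14) were summed per symbol, and the 89 members came from 149 entries. The files used here hold no counts. Reads were implied from the interval width of genes with a single entry, and 78.9% to 80.8% of the low values (up to 30 reads) came out whole within 0.02. The precision this gives covers counting error only.

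log2(FPKM + 0.1) was fitted across the 10503 genes with a mean of at least 1 FPKM in limma 3.58.1 (R 4.3.3) with a variance trend, two-sided, with Benjamini-Hochberg adjustment over all of them at 0.05. The siRNAs served as replicates of the knockdown. The fits were tested on simulated data. Tables and plots used Python 3.11.15, numpy 2.4.6, pandas 2.3.3 and matplotlib 3.10.9. Alternatives covered the pseudocount (1 and 0.01 FPKM), the filter, scaling by the median ratio, the choice of entries, leaving out each library, NTC or knockdown libraries only, and a replicate block.

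Genes named were, by rule, the 4 called members per complex with the largest non-overlapping difference between the cell lines, isoform groups, catalytic or cofactor subunits, members called in the knockdown with the 6 that moved most in all 4 siRNA comparisons, and members under 1 FPKM. Members, lists and the rule were chosen with earlier results of these data known. Genes of the other lists were named after their values were seen, as were members outside the rule. The values of 1 member are not reported here, and it stays in the counts.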

Additional observations from a re-analysis of the deposited data

How the results depend on the processing

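The count of members called between the cell lines, 69 of 82, ranged from 64 to 68 when a library was left out and was 57 with NTC libraries only, 61 with knockdown libraries only and 66 to 71 under the other planned settings. The medians by complex kept their sign and moved by less than the spread between replicates under every alternative run. Over the members that the naming rule takes for the comparison of the cell lines, 722 alternative values between the cell lines stayed on the same side of the threshold, 11 lost the call, 5 gained it and none changed sign. Other members named in the text, such as NDUFS6, NDUFA7 and ATP5F1D, were not followed singly through the alternatives between the cell lines. Without the filter on low values, 11633 genes were called between the cell lines in place of 8718, and 11 in place of 1 for the difference of knockdown.

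The knockdown count of members within A498 ranged from 0 to 2 when a library was left out. The 2 came without the siRNA 1 library, where the lone siRNA library is assumed to vary like the NTC libraries, and all genes called then rose from 3 to 156. Without the siRNA 2 library 96 genes and 0 members were called. The other knockdown fits called 0 members under every setting, and over all genes 0 to 5 within 786-O, 0 to 4 over both cell lines and 0 to 11 for the difference. Past a rise of 25% or a fall of 20%, A498 siRNA 1 had 1 member (0 with a pseudocount of 1 FPKM, 6 without the filter) and A498 siRNA 2 had 2 (6 without the filter, 2 to 4 with an NTC library left out, the 4 without NTC 2). 786-O siRNA 1 had 0 (3 without the filter, 1 with only the highest entry per symbol), and 786-O siRNA 2 had 1 (2 without the filter, 3 with only the highest entry, 1 to 3 with an NTC library left out, the 3 without NTC 1). Where no value shows it, the cause was not tested.

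With the replicate number as a block, 69 members were called between the cell lines and 0 in the knockdown fits. Against the NTC library of the same number (replicate block), 786-O siRNA 2 passed it for 3 members in place of 1. Deviations of libraries with the same number correlated at 0.25 in A498, -0.03 in 786-O, -0.26 between the NTC libraries and 0.17 between the knockdown libraries of the cell lines. Whether libraries of the same number were prepared together was not tested. With the NTC numbers crossed, an alternative chosen after seeing the data, 74 members and 9022 genes were called.

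Single-entry members tested had 294 to 55526 implied reads in a library, and members under 1 FPKM were not tested. With 2 libraries a group and 1 library per siRNA and cell line, small changes within a cell line were not detectable.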

Other observations

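Some members with large differences between the cell lines lay among genes that differed the same way. These members were picked after the values were seen, the neighbours are the tested genes within 1 Mb on each side, and no share over all genes was computed to read them against. Around NDUFS4 on chromosome 5, 4 of 4 neighbours were lower in 786-O, with a median log2 difference of -1.90, beside -0.95 for NDUFS4. Around UQCRFS1 on chromosome 19, 5 of 5 were lower, with a median of -1.17, beside -0.66 for UQCRFS1. Around NDUFS3 on chromosome 11, 19 of 22 were lower, with a median of -0.70, and around NDUFA3 on chromosome 19, 11 of 13, with a median of -0.78. Around NDUFA9 on chromosome 12, 4 of 5 were higher, with a median of 1.52.

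Other members stood apart from their neighbours in direction or in size. NDUFS6 was higher in 786-O with a log2 difference of 0.86, and the median of its 7 neighbours was -0.25. ATP5MC3 was lower at -0.47, and 9 of its 11 neighbours were higher. For NDUFA7 and ATP5F1E, which were higher in 786-O, the medians of the neighbours were -0.02 and 0.00. NDUFA13 was lower at -0.67, and 16 of its 29 neighbours were lower, with a median of -0.06. Copy number was not measured in these libraries.

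NDUFV3 and ATP5F1D differed between the cell lines in how their level was divided between RefSeq transcripts. Of 32 tested members with 2 or more entries, 3 had an entry whose share differed by at least 20 percentage points without overlap. The other was NDUFC2-KCTD14, through A498 NTC 2 alone. Smaller gaps without overlap were present in further members, such as NDUFA2 and NDUFV1. For NDUFV3, an accessory subunit of complex I, the entry NM_001001503 held 39.3%, 38.2%, 29.9% and 26.6% of the summed FPKM in A498 and 60.3%, 65.4%, 58.7% and 61.0% in 786-O. For ATP5F1D, NM_001001975 held 62.1%, 69.5%, 64.9% and 64.5% in A498 and 36.7%, 17.8%, 24% and 35.9% in 786-O. The shares did not overlap between the cell lines for either gene, and both were picked after the values were seen. The division rests on how Cufflinks assigned reads of 36 bp to overlapping entries, and it was not tested.

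COXFA4L3, a relative of COXFA4 outside the rule, ranged from 62.2 to 72.4 FPKM in A498 and from 172 to 204 FPKM in 786-O, a log2 difference of 1.47 (SE 0.06, limma adjusted p = 1.1e-08).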
